A study of Mus musculus with 11 samples.

Results

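Fc receptors bind the constant part of antibodies and were followed here as 6 genes of 21860 in the table of normalised counts. They were listed by name, with earlier results of these data known. Fcgr1, Fcgr3 and Fcgr4 encode the ligand-binding chains of the activating IgG receptors FcγRI (CD64), FcγRIII and FcγRIV. Fcgr2b encodes the inhibitory IgG receptor FcγRIIB, Fcer1g the signalling γ-chain that the activating receptors share, and Fcgrt the heavy chain of the neonatal Fc receptor FcRn. All 6 passed the filter on low values (at least 10 in at least 2 samples) and were tested among 13095 genes.

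RNA-seq had been done on 11 samples of CD11b-low EpCAM+ Langerhans-like cells sorted from mouse bone marrow monocytes, harvested on day 6 of culture with GM-CSF (20 ng/ml), which all groups shared. In the TGFβ/IL-34 group (n = 2) TGFβ (5 ng/ml) and IL-34 (8 µg/ml) were added. The TGFβ/IL-34/FICZ group (n = 2) also received FICZ, a ligand of the aryl hydrocarbon receptor (Ahr) that the study used as an agonist. The TGFβ/IL-34/Jag1 group (n = 3) also received the Notch ligand Jag1, and the TGFβ/IL-34/Jag1/FICZ group (n = 3) received both. In the Jag1 only group (n = 1) Jag1 was given with GM-CSF but without TGFβ and IL-34. Jag1 came from OP9 stromal cells that carry it. The labels name co-culture with OP9 for every sample, but the sample codes read Mo without Jag1 and Jag with it. The paper describes monocyte cultures and OP9 co-cultures separately. It is therefore unclear whether the groups without Jag1 were grown on OP9 cells, so that Jag1 and its stroma cannot be told apart. The replicates of a group carry different experiment codes, but no source used here says whether a code stands for separate animals or cultures. The p-values measure only the spread between these samples, which may be technical.

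In myeloid cells an activating receptor pairs with the γ-chain, whose ITAM (a tyrosine motif) is phosphorylated by Src-family kinases and recruits the kinase Syk once antibody complexes cross-link it. FcγRIIB carries an inhibitory motif instead and recruits the lipid phosphatase SHIP-1, so that the balance of both kinds of receptor sets the response to immune complexes. FcRn lies inside the cell, binds IgG at acid pH and returns it to the surface or passes it to antigen presentation. The sort used CD11b and EpCAM and none of the 6 genes, after an incubation with 2.4G2, an antibody to FcγRII and FcγRIII.

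Fcgr3 and Fcgr2b are close relatives, and reads in the stretches they share can be placed in either gene. In GRCm39 (GENCODE vM39) Fcgr2b lies at chr1:170786186-170804177, Fcgr4 at chr1:170846466-170857330, Fcgr3 at chr1:170878738-170893549 and Fcer1g at chr1:171057141-171062219. These 4 genes share 276 kb of chromosome 1, all on the minus strand except Fcgr4. Fcgr1 lies at chr3:96190225-96201338 and Fcgrt at chr7:44742412-44756819, both on the minus strand. Exon 4 of the canonical Fcgr2b transcript (chr1:170794015-170794269) and exon 4 of the canonical Fcgr3 transcript (chr1:170881508-170881762) are both fully coding and 255 bases long, and 250 of the bases (98.0%) are identical. Both are printed 5′ to 3′ on the minus strand to show how little separates the inhibitory from the activating gene there, with the 5 differing bases in capitals.
Fcgr2b exon 4: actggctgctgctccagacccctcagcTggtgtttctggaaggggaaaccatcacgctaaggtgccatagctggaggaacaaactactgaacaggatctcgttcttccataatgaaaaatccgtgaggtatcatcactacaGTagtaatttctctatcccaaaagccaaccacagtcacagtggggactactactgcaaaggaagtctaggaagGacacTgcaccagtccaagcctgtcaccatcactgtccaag
Fcgr3 exon 4: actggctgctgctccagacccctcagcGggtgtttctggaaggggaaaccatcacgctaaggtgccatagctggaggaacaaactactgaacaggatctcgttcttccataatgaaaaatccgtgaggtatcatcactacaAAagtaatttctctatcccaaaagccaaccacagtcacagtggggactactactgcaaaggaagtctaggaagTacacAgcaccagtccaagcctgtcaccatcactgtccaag

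The longest run that the canonical Fcgr2b and Fcgr3 transcripts share without a difference was 129 bases, across the end of exon 3 and the start of exon 4. Over all annotated transcripts, 4.06% of the 31-base words of Fcgr2b and 7.12% of those of Fcgr3 occur in the other gene. With any other gene the shares are 11.1% for Fcgr2b, with 5.12% in the overlapping lncRNA Gm38204, and 10.3% for Fcgr3. Fcgr1 and Fcer1g share no such word with another gene, and Fcgr4 and Fcgrt share 1.33% and 1.27%. A read from a shared stretch of Fcgr2b or Fcgr3 was assigned by the quantification, and results for both genes are therefore also given for their sum. Fcgr2b, Fcgr4 and Fcgrt each overlap an annotated lncRNA on the opposite strand, and whether the counting used strand is not given in the sources used here.

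The level of each gene across all samples was set first, as normalised count per kb of the canonical transcript, the scale on which levels of different genes are ranked here. Fcgr3 had a median of 2523 per kb over the 11 samples (range 942 to 3518) and Fcer1g 2333 (1487 to 5138), and their ranges overlapped widely. Fcgrt followed with a median of 639 per kb (231 to 994) and Fcgr2b with 424 (169 to 517), also with overlapping ranges. Fcgr1 (median 9.14 per kb, highest 53.1) and Fcgr4 (median 7.32, range 0 to 22.6) were the lowest, and overlapped. The cells thus held mainly transcripts of the activating receptor FcγRIII and its γ-chain, those of FcγRIIB and FcRn at an intermediate level and those of FcγRI and FcγRIV at the lowest.

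Before the comparisons, the libraries were checked. Totals of normalised counts were between 21310445 and 27845052, and the highest belonged to TGFβ/IL-34/FICZ replicate 1. This sample and TGFβ/IL-34/Jag1/FICZ replicate 1 carry a different code in their names from the other 9. No label explains the code, and it was taken here as the flow cell. A further suffix, on every TGFβ/IL-34/Jag1 name and on only some of the other names, was not examined. Epcam was detected in every sample, at 657 normalised counts in Jag1 only and 3952 to 14377 in the other groups, while the Langerhans cell marker Cd207 ranged from 6.21 to 1784. The summed level of 9 stromal markers was 12.8 to 38.0 normalised counts in the 4 samples without Jag1 and 391 to 4629.6 in the 7 with it, at most 0.0212% of a sample's total. Of 5 B cell markers the sum stayed between 7.94 and 67.0, and of 5 NK and T cell markers between 0 and 93.4. The NK and T cell sum differed between groups, with 0 to 3.99 in TGFβ/IL-34/Jag1 and 56.8 to 93.4 in TGFβ/IL-34/Jag1/FICZ. In bulk samples fewer cells of a type and less RNA per cell cannot be told apart.

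The first comparison set Jag1 cultures in TGFβ/IL-34 against TGFβ/IL-34 alone. Fcgr1, Fcgr2b and Fcgr3 were lower with Jag1, that is transcripts of the high-affinity activating receptor, the inhibitory receptor and the main activating receptor, while Fcer1g, Fcgrt and Fcgr4 did not pass the test. So 3 of 6 genes were called, all lower, against 6.6% of all genes tested. The median log2 fold change of the 6 was -0.94, beside 0.00 over all genes.

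**Figure D1:**
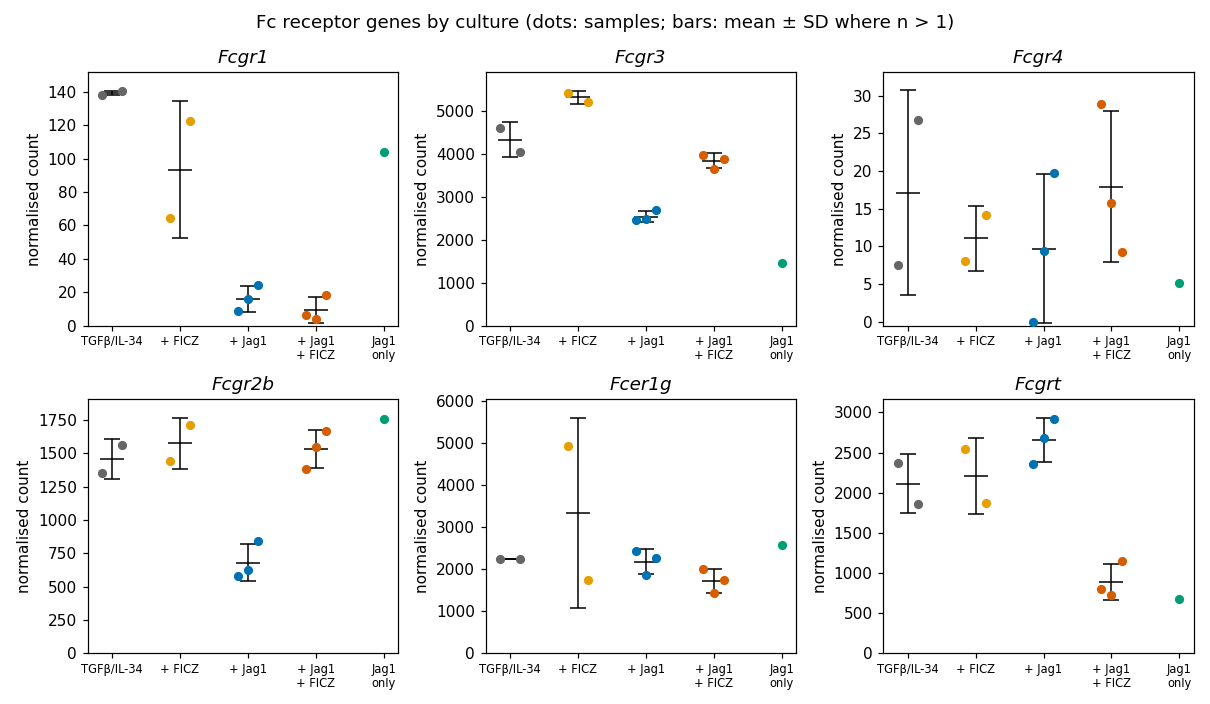
Normalised counts of the 6 Fc receptor genes (y axis, linear, a separate scale for each gene) in the 5 culture groups (x axis); each dot is a sample and bars give the mean ± SD where a group has more than 1 sample. Fcgr1 is low in both TGFβ/IL-34 groups with Jag1, Fcgr2b and Fcgr3 are low with Jag1 and higher again with Jag1 and FICZ, and Fcgrt is low with Jag1 and FICZ and in Jag1 only.

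Fcgr1, whose product binds monomeric IgG with high affinity and is widely used as a macrophage marker, had 138 and 140.2 normalised counts in TGFβ/IL-34 and 8.61, 15.8 and 24.1 in TGFβ/IL-34/Jag1. All 3 samples with Jag1 lay below both without it. The means were 139 ± 1.35 (SD, n = 2) and 16.2 ± 7.77 (n = 3), and the log2 fold change was -3.14 (SE 0.64, limma adjusted p = 0.0166). A larger absolute log2 fold change was found in 1.94% of the genes tested. Fcgr2b had 1352 and 1565 normalised counts without Jag1 and 576, 623 and 839 with it, again without overlap. Its log2 fold change was -1.12 (SE 0.20, limma adjusted p = 0.00877), from 1458 ± 150.3 (SD, n = 2) to 679 ± 140.2 (n = 3). Fcgr3 had 4622 and 4044 normalised counts without Jag1 and 2455, 2478 and 2690.4 with it. The groups did not overlap, and the log2 fold change was -0.77 (SE 0.14, limma adjusted p = 0.0103). With Fcgr2b and Fcgr3 summed to a single value, the log2 fold change was -0.85 (SE 0.14, adjusted p = 0.00606).

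The other 3 genes did not pass the test. Fcer1g had 2237 and 2243 normalised counts without Jag1 and 2417, 1845 and 2256 with it, which lie on both sides of the first pair (log2 fold change -0.05, SE 0.36, limma adjusted p = 0.964). For Fcgrt the values were 2371 and 1854 without and 2363, 2684 and 2916 with Jag1 (log2 fold change 0.33, SE 0.23, limma adjusted p = 0.524). Fcgr4 was near the limit of detection in every group. It had 7.56 and 26.7 normalised counts without Jag1 and 0, 9.37 and 19.8 with it, where the 0 allows up to 3.39 (3 reads). Its log2 fold change was -1.36 (SE 1.16, limma adjusted p = 0.625).

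These calls rest on 2 TGFβ/IL-34 samples: without replicate 1 or without replicate 2 of that group none of the 3 genes was called (limma adjusted p = 0.0577 to 0.155), and Fcgr1 was also not called without TGFβ/IL-34/Jag1 replicate 1 (0.0539), while their adjusted p under the alternatives that kept all samples was 0.000258 to 0.0395. Of 6 Langerhans cell markers only Epcam was called, higher with Jag1 (4878 ± 243 to 11190 ± 3425, log2 fold change 1.15, limma adjusted p = 0.0412). That call was lost in 9 of 23 alternatives. Cd207, at 156 ± 1.55 without Jag1 and 1616 ± 221 with it, was not called. Of 8 monocyte and macrophage markers, Ly6c2, Plac8 and Adgre1 were lower with Jag1 and Mertk was higher, and their summed level was 44445 to 44904 without Jag1 and 26074 to 61428 with it. The sum of 11 mast cell and basophil markers was 6198 and 6465 without Jag1 and 1842 to 2983 with it. Fcer1a, the chain that defines the IgE receptor of mast cells, was at 0 in both groups. The part of these cells in the Fc receptor results was not tested.

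FICZ in cultures without Jag1 was compared next. None of the 6 genes passed (limma; 0 of 6 at an unadjusted p under 0.05), in a comparison that called 0.0229% of all genes. Fcgr3 was at 5435 and 5211 normalised counts with FICZ and at 4622 and 4044 without, which did not overlap (log2 fold change 0.30, SE 0.16, limma adjusted p = 0.304). Fcgr2b was at 1442 and 1711 with FICZ, over the range of the samples without it (log2 fold change 0.11, SE 0.22), and Fcgrt was at 2545 and 1873 (log2 fold change 0.06, SE 0.26). Fcgr1 was at 64.2 and 122, both below the 138 and 140.2 of the reference (log2 fold change -0.65, SE 0.70, limma adjusted p = 0.588), and Fcgr4 was at 8.04 and 14.1.

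Fcer1g separated the FICZ samples from each other rather than from the reference. It had 4928 normalised counts in TGFβ/IL-34/FICZ replicate 1 and 1737 in replicate 2, the highest and the 3rd lowest of all 11 samples. The log2 fold change was 0.39 (SE 0.39, limma adjusted p = 0.563). Without replicate 2 it was 1.14 and was called (adjusted p = 0.00264), and without replicate 1 it was -0.37 and was not (adjusted p over all alternatives 0.00264 to 0.974). Replicate 1 was the sample with the highest total and a different flow cell code. With that code as a term in the fit the log2 fold change was -0.04. Only this sample and TGFβ/IL-34/Jag1/FICZ replicate 1 carry the code, in different groups. The fit therefore cannot tell the flow cell from other traits of these samples, and the part of the flow cell or the total in this value was not tested.

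FICZ added to cultures with Jag1 gave the calls that were least dependent on any single sample. Fcgr2b and Fcgr3 rose and Fcgrt fell, so that 3 of 6 genes were called against 17.7% of all genes tested, and these calls held in all 23 alternatives run. Some of these could hardly change a call. Summing Fcgr2b and Fcgr3 leaves Fcgrt as it was and gives the summed genes a single value. Omitting a sample outside the compared groups leaves the fold changes as they were and can alter only the SE and adjusted p. The median log2 fold change of the 6 was 0.13, beside -0.01 over all genes.

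Fcgr2b, the inhibitory receptor, had 576, 623 and 839 normalised counts with Jag1 and 1381, 1552 and 1668 with Jag1 and FICZ. Every sample with FICZ lay above every sample without it. The log2 fold change was 1.19 (SE 0.18, limma adjusted p = 0.00136), from 679 ± 140.2 to 1533 ± 144 (SD, n = 3 each). With FICZ and Jag1 together the Fcgr2b values overlapped those of TGFβ/IL-34 alone, where the samples had 1352 and 1565. Fcgr3 had 2455, 2478 and 2690.4 normalised counts without FICZ and 3989, 3662 and 3898 with it, with no overlap (log2 fold change 0.60, SE 0.13, limma adjusted p = 0.00863). The sum of Fcgr2b and Fcgr3 rose by 0.74 on the log2 scale (SE 0.13, adjusted p = 0.00264).

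Fcgrt moved in the opposite direction. FcRn heavy chain transcripts were at 2363, 2684 and 2916 normalised counts with Jag1 and at 796, 726 and 1142 with Jag1 and FICZ, a fall of 3.03-fold in the fit (log2 fold change -1.60, SE 0.21, limma adjusted p = 0.000615). All 3 samples with FICZ lay below every other TGFβ/IL-34 sample, of which the lowest had 1854. Fcgr1 stayed low, at 6.17, 3.95 and 18.1 normalised counts with FICZ (log2 fold change -0.86, SE 0.57, limma adjusted p = 0.368), and these few counts overlapped with those of the samples without it. Fcer1g was at 2004, 1426 and 1724 with FICZ (log2 fold change -0.34, SE 0.32) and Fcgr4 at 28.9, 15.7 and 9.20 (log2 fold change 1.52, SE 1.04), neither of which passed.

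Markers of other cells moved in the same samples. The sum of 10 neutrophil and granulocyte progenitor markers was 267 to 375 normalised counts with Jag1 and 8403 to 12973 with Jag1 and FICZ, and 7 of the 9 tested were higher, while Ly6g was at 0 in both groups. The sum of 11 mast cell and basophil markers rose from 1842 to 2983 up to 10097 to 13171, with 5 of 6 tested higher and with Tpsb2 and Fcer1a at 0 in both. These lists took at most 0.0600% and 0.0603% of a sample's total. The sum of 5 NK and T cell markers was 0 to 3.99 with Jag1 and 56.8 to 93.4 with both. Of these, 2 were tested and 2 were higher, with Gzma at 1.33 ± 2.30 and 56.9 ± 13.9 (log2 fold change 5.05, limma adjusted p = 0.0013). The 6 Langerhans cell markers summed to 740969.6 to 898704 with Jag1 and 331782 to 428618 with both, with Cd207 and H2-Ab1 lower and 4 not called. Most of this sum was Cd74 and H2-Ab1, with means of 493503 and 268849 with Jag1 and 255656 and 85373 with both. Of the 8 monocyte and macrophage markers, Plac8 (83.9 ± 33.0 to 3114 ± 293, log2 fold change 5.28) and Ly6c2 (17.9 ± 4.86 to 715 ± 151, log2 fold change 5.25) were higher, and Mertk (-2.62) and Csf1r were lower. The monocyte list summed to 26074 to 61428 with Jag1 and 23194 to 33180.5 with both. Monocytes, mast cells and granulocytes are known to express FcγRIII and FcγRIIB. The part of such cells, or of NK and T cells, in the higher Fcgr2b and Fcgr3 was not tested.

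**Figure D2:**
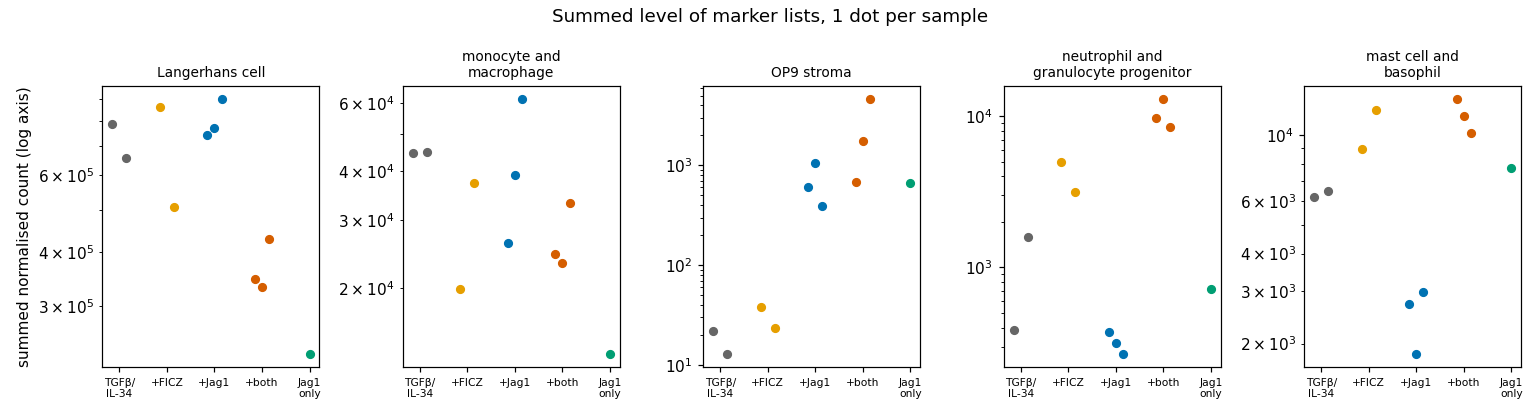
Summed normalised counts of 5 marker lists (y axis, logarithmic) in each sample by culture group (x axis, where +FICZ, +Jag1 and +both are additions to TGFβ/IL-34); each dot is a sample. The granulocyte list is between 267 and 375 with Jag1 and between 8403 and 12973 with Jag1 and FICZ, and the stromal list is above 390 only in samples with Jag1.

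Jag1 and FICZ together were then compared with TGFβ/IL-34. Fcgr1 and Fcgrt were lower, 2 of 6 against 4.48% of all genes. Fcgr1 fell from 138 and 140.2 to 6.17, 3.95 and 18.1 normalised counts (log2 fold change -4.00, SE 0.64, limma adjusted p = 0.00827), a larger absolute change than in all but 0.71% of genes. Fcgrt fell from 2371 and 1854 to 796, 726 and 1142 (log2 fold change -1.27, SE 0.23, limma adjusted p = 0.0168). Neither gene overlapped between the groups. Fcgr2b (log2 fold change 0.07, SE 0.20) and Fcgr3 (-0.17, SE 0.14), which were lower in TGFβ/IL-34/Jag1 than in TGFβ/IL-34, were not called here. The Fcgr1 and Fcgrt calls were lost without either TGFβ/IL-34 replicate (adjusted p = 0.0712 to 0.209), and Fcgrt was also lost without TGFβ/IL-34/Jag1/FICZ replicate 1 (0.0738) or 2 (0.0765). Both comparisons share the TGFβ/IL-34 samples as reference. The sum of the 9 stromal markers was 679 to 4629.6 against 12.8 to 22.0 in the reference, and all 7 that were tested were higher. In the same comparison 5 of 9 granulocyte markers were higher (Ngp by 4.92 and Elane by 4.29 on the log2 scale), as were 3 of 6 mast cell and basophil markers (Hdc by 2.97). Of the monocyte and macrophage markers Plac8 was higher (2.88) and Csf1r, the receptor of IL-34, lower (-2.03), and of the Langerhans cell markers H2-Ab1 was lower (-1.25). The part of such cells in the lower Fcgr1 and Fcgrt was not tested.

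With FICZ in both groups, Fcgr1 and Fcgrt were lower with Jag1 than without, 2 of 6 against 2.02% of all genes. Fcgr1 went from 64.2 and 122 normalised counts to 6.17, 3.95 and 18.1 (log2 fold change -3.35, SE 0.64, limma adjusted p = 0.0294), and Fcgrt from 2545 and 1873 to 796, 726 and 1142 (-1.33, SE 0.23, adjusted p = 0.024). The groups did not overlap for either gene or for Fcgr3, which was not called (log2 fold change -0.47, SE 0.14, adjusted p = 0.115). Fcgr2b was not called (-0.04, SE 0.20). Fcgr1 lost its call in 9 of 23 alternatives and Fcgrt in 5. Both were lost when only the 2 groups were fitted (adjusted p = 0.163 for Fcgr1 and 0.145 for Fcgrt), with sample weights (0.689 for both) or without TGFβ/IL-34/Jag1/FICZ replicate 1 or 2 or TGFβ/IL-34/FICZ replicate 1 (0.0528 to 0.109), and Fcgr1 also without TGFβ/IL-34/Jag1 replicate 2 or either TGFβ/IL-34 replicate (0.051 to 0.0619) and with no filter on low values (0.0643). Without TGFβ/IL-34/FICZ replicate 2, the sample with low Fcer1g, Fcer1g (-1.53, adjusted p = 0.000359) and Fcgr3 (-0.50, adjusted p = 0.0107) were called as well, which made 4 of 6.

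An interaction term compared the effect of FICZ in Jag1 cultures with its effect in the others, and it called 1.39% of all genes and 1 of the 6. For Fcgrt the effect of FICZ was lower with Jag1 than without by 1.66 on the log2 scale (interaction -1.66, SE 0.33, limma adjusted p = 0.0433), since FICZ changed it by 0.06 without Jag1 and by -1.60 with it. This call was lost in 14 of the 23 alternatives (adjusted p up to 0.301), among them leaving out either TGFβ/IL-34 replicate, TGFβ/IL-34/FICZ replicate 1 or any replicate of the groups with Jag1. For Fcgr2b the interaction was 1.078 (SE 0.28, adjusted p = 0.109), and it was called only without TGFβ/IL-34/FICZ replicate 2 (adjusted p = 0.00764), as was that of Fcer1g (-1.48, adjusted p = 0.00206). For Fcgr3 it was 0.30 (SE 0.20, adjusted p = 0.399).

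**Figure D3:**
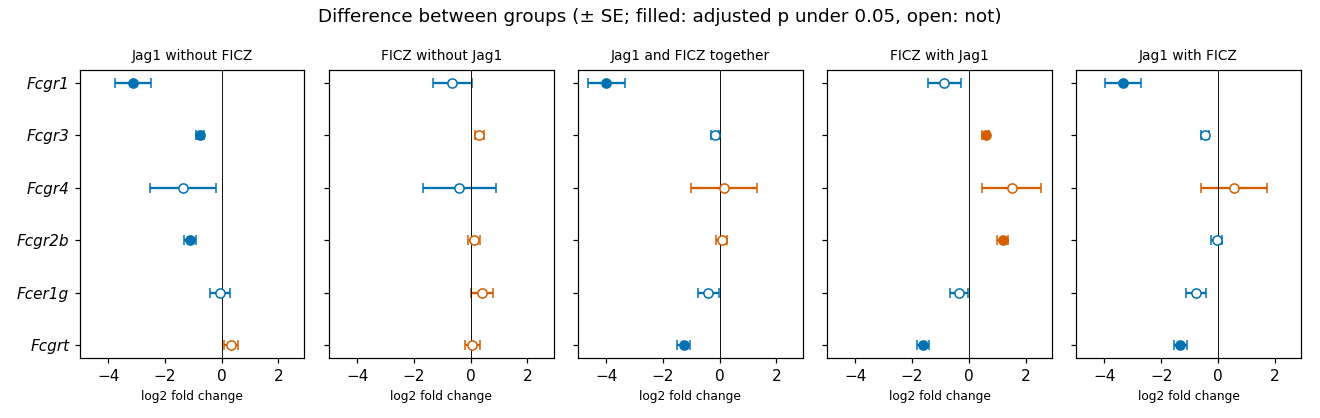
Log2 fold change on the log2(normalised count + 1) scale (x axis) of the 6 Fc receptor genes (y axis) in the 5 comparisons (panels), with bars of 1 SE; filled points passed an adjusted p of 0.05 and open points did not. Fcgr1 is at -3.14 to -4.00 in the 3 comparisons of samples with Jag1 against samples without, and Fcgr2b and Fcgrt change in opposite directions when FICZ was added with Jag1.

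The balance of activating and inhibitory receptors was described for each sample as the log2 value of an activating chain minus that of Fcgr2b. No correction for the length of the canonical transcript was made, since it is 1 constant per gene. Differences in transcript use between samples were not examined. For Fcgr1 the difference was -3.38 ± 0.135 (SD, n = 2) in TGFβ/IL-34, -4.13 ± 0.474 (n = 2) with FICZ, -5.40 ± 0.449 (n = 3) with Jag1 and -7.44 ± 0.932 (n = 3) with both. The 4 groups followed each other without overlap. For Fcgr3 it was 1.57 ± 0.285 (n = 2), 1.76 ± 0.217 (n = 2), 1.92 ± 0.214 (n = 3) and 1.33 ± 0.173 (n = 3) in the same order. When FICZ was added with Jag1, the Fcgr3 difference went from 1.68 to 2.09 down to 1.22 to 1.53 and did not overlap (-0.59, exact two-sided permutation p = 0.1). That is the smallest p that groups of 3 and 3, or of 3 and 2, can give (0.333 for 2 and 2), and over the 15 comparisons of this kind the lowest adjusted p was 0.3. Put as a share per kb of transcript, Fcgr2b was 9.62% to 12.4% of the sum of Fcgr2b and Fcgr3 in the 3 samples with Jag1 and 13.6% to 16.3% in the 3 with Jag1 and FICZ.

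**Figure D4:**
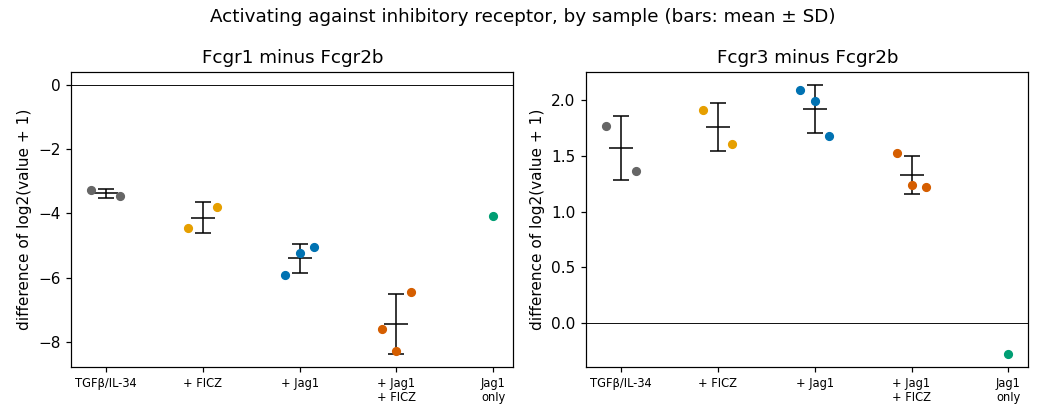
Difference of log2(normalised count + 1) between an activating receptor gene and the inhibitory Fcgr2b (y axis) by culture group (x axis), for Fcgr1 (left) and Fcgr3 (right); dots are samples and bars the mean ± SD. The Fcgr1 difference falls from -3.38 in TGFβ/IL-34 to -7.44 with Jag1 and FICZ, and the Fcgr3 difference is lowest in Jag1 only, at -0.27. The values are not corrected for transcript length, so that a shift between samples can be read from them and the order of the genes cannot.

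The single Jag1 only sample, grown without TGFβ and IL-34, has no replicate and was described without a test. It had the highest Fcgr2b of all samples (1758 normalised counts against 576 to 1711 in the other 10) and the lowest Fcgr3 (1455 against 2455 to 5435) and Fcgrt (677 against 726 to 2916). Per kb of transcript, Fcgr2b made up 35.4% of the sum of Fcgr2b and Fcgr3 there and 9.62% to 16.3% in the other 10 samples, so that Fcgr3 was above Fcgr2b in every sample. Its Fcgr1 was 104, inside the range of the TGFβ/IL-34 groups without Jag1 (64.2 to 140.2) and above that of the groups with it (3.95 to 24.1). In this sample the Fcgr1 difference from Fcgr2b was -4.06 and the Fcgr3 difference -0.27. Its Fcer1g (2572) and Fcgr4 (5.17) lay within the range of the others.

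Genes that act with the receptors were counted from lists. Of 18 genes of activating ITAM signalling, all tested, Lyn and Malt1 were higher and Btk and Rac2 lower with Jag1 (without FICZ) (median log2 fold change of the list -0.24, beside 0.00 over all genes). When FICZ was added with Jag1, Vav3 and Rac2 were higher and Lyn, Vav1 and Card9 lower (median 0.08, beside -0.01). FICZ without Jag1 and both factors together called none of the 18 (limma), and Jag1 with FICZ called Malt1, which was higher (a call lost in 12 of 23 alternatives). Of all genes tested, these 5 comparisons called 6.6%, 17.7%, 0.0229%, 4.48% and 2.02%, in the order given here. Rac2, a GTPase of the phagocyte oxidase and of phagocytosis, fell with Jag1 and rose when FICZ was added with Jag1, as Fcgr2b did. The courses differed in the remaining groups. With FICZ alone Rac2 averaged 12170 ± 2943 and Fcgr2b 1576 ± 190 (SD, n = 2), and in Jag1 only, where Fcgr2b was highest, Rac2 had 3999. Rac2 had 7418 ± 726 normalised counts (SD, n = 2) in TGFβ/IL-34, 1749 ± 264 (n = 3) with Jag1 and 7549 ± 583 (n = 3) with Jag1 and FICZ. Its log2 fold changes were -2.09 (limma adjusted p = 0.000285) and 2.12 (adjusted p = 4.9e-05), which held in all 23 alternatives, and its interaction was 1.42 (adjusted p = 0.043), which was lost in 12 of them. The call of Malt1 with Jag1 was lost in 12 of 23 and that of Btk in 7, both without either TGFβ/IL-34 replicate (adjusted p = 0.182 to 0.247) and without several replicates of the groups with Jag1 (0.0504 to 0.0937). Lyn, the Src-family kinase that phosphorylates both activating and inhibitory motifs, went the other way, from 2964 ± 64.0 to 4821 ± 273 with Jag1 and to 2744 ± 218 with both. Card9, an adaptor that links Syk to NF-κB, was at 6652 ± 277 with Jag1 and at 2711 ± 478 with Jag1 and FICZ (log2 fold change -1.31, limma adjusted p = 0.00798). Syk itself, named for its role after its values were seen, was between -0.27 and 0.28 on the log2 scale in the 5 comparisons and passed in none.

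Of 8 genes of inhibitory signalling, FICZ with Jag1 lowered Inpp5d, which encodes SHIP-1 (9446 ± 2229 to 5080.5 ± 308, log2 fold change -0.87, limma adjusted p = 0.0221), and raised Cblb, a ubiquitin ligase that restrains such signals (0.71, adjusted p = 0.0307), with a list median of -0.05. Inpp5d fell in the comparison in which its receptor partner Fcgr2b rose. With 1 of 8 higher and 1 lower, in a comparison that called 17.7% of all genes, the count does not mark out this list. The other 4 comparisons called none of the 8 (limma), and 0.0229% to 6.6% of all genes. Both calls were lost in some alternatives, Inpp5d in 5 of 23 and Cblb in 8, among them each omission of a TGFβ/IL-34/Jag1/FICZ replicate (adjusted p = 0.0647 to 0.108) and of TGFβ/IL-34/Jag1 replicate 3 (0.082 and 0.108), and for Cblb also of TGFβ/IL-34/Jag1 replicate 2 (0.0904) or either TGFβ/IL-34 replicate (0.0555).

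Of 7 genes of the FcRn light chain and recycling list, 5 were tested. Rab11fip5, a Rab11 effector in endosomal recycling, was the only one called. The comparisons in which it passed (Jag1 without FICZ and FICZ with Jag1) called 6.6% and 17.7% of all genes. It rose with Jag1 (639 ± 48.8 to 1281 ± 71.2, log2 fold change 1.00, limma adjusted p = 0.0313) and fell when FICZ was added with Jag1 (to 521 ± 161, -1.34, adjusted p = 0.00169). The rise was lost in 8 of 23 alternatives, among them the omission of any TGFβ/IL-34 or TGFβ/IL-34/Jag1 replicate or of TGFβ/IL-34/Jag1/FICZ replicate 1 (adjusted p = 0.0503 to 0.274) and the replicate block (0.0587), and the fall in none. Fcgrt fell in the same comparison. B2m, the light chain that FcRn shares with MHC class I and named for that role after its values were seen, was between -0.28 and 0.28 on the log2 scale in the 5 comparisons and passed in none.

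Other receptors that use the γ-chain were measured beside Fcer1g, which no comparison called. Of 5 listed, 4 were tested. Both factors against TGFβ/IL-34 called 1 of the 4 (4.48% of all genes) and Jag1 with FICZ called 1 (2.02%). FICZ with Jag1 called 1 higher and 2 lower (17.7% of all genes). Clec4n, which encodes the C-type lectin Dectin-2, was lower with Jag1 and FICZ (3734 ± 1181) than in TGFβ/IL-34 (9740.0 ± 248, log2 fold change -1.44, limma adjusted p = 0.0317), than with FICZ (-1.52, adjusted p = 0.0401) and than with Jag1 (7815 ± 1647, -1.10, adjusted p = 0.0216). These 3 calls were lost in 5, 12 and 4 of 23 alternatives, each among them without TGFβ/IL-34/Jag1/FICZ replicate 1 or 2 (adjusted p = 0.0544 to 0.129). Clec4e, which encodes Mincle, rose when FICZ was added with Jag1 (50.6 ± 38.0 to 237 ± 51.0, log2 fold change 2.42, limma adjusted p = 0.0102), and Oscar was lower there. Of 14 other Fc receptors and related genes, 13 were in the table and 8 tested. Of the 8, 2 were lower with Jag1 without FICZ (6.6% of all genes called) and 2 higher when FICZ was added with Jag1 (17.7%). Fcrls, an Fc receptor-like gene, fell with Jag1 and rose when FICZ was added with Jag1, as Fcgr2b did, but had only 75.3 in Jag1 only. Fcrls was at 165 ± 14.2 in TGFβ/IL-34, 17.9 ± 20.9 with Jag1 (log2 fold change -3.80, limma adjusted p = 0.0174) and 100.4 ± 12.02 with both (3.08 from Jag1, adjusted p = 0.0121). The fall was lost without either TGFβ/IL-34 replicate (0.115 and 0.16) or TGFβ/IL-34/Jag1 replicate 3 (0.055), and the rise without TGFβ/IL-34/Jag1/FICZ replicate 2 (0.0501). Ms4a2, the β-chain of the IgE receptor, was called in the same directions and was at 25.0 ± 14.5, 1.02 ± 1.30 and 58.9 ± 0.582. The α-chain gene Fcer1a was at 0 in all 11 samples.

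Over the 11 samples the genes most like each receptor were sought among 10124 genes by Pearson correlation of log2 values, as a description without a test. The samples share groups and libraries, so that any genes that differ between the groups in the same way correlate. Fcgr3 was most like Fam3c (0.98), Tiparp (0.97), which encodes an ADP-ribosyltransferase and is a known Ahr target, and Cd34 (0.97), the stem cell and mast cell antigen. Tiparp had 2652 to 2755 normalised counts in TGFβ/IL-34, 2979.5 to 3688 with FICZ, 965 to 1614 with Jag1, 2103 to 2551 with both and 590.1 in Jag1 only. Fcgr2b was most like App (0.98), AB124611 (0.97) and Stom (0.97), Fcgrt like Lyrm4 (0.97), Rheb (0.97) and Acat1 (0.96), and Fcgr1 like Ado (0.93), Abca3 (0.91) and Fundc2 (0.89). Fcer1g was most like Hps4 (0.98), Ddrgk1 (0.97) and Rdh14 (0.96), with TGFβ/IL-34/FICZ replicate 1 as the farthest sample in Fcer1g, and Fcgr4 like Dnajb5 (0.90), Rab32 (0.89) and Cdca7l (0.89). Among the 6 themselves the correlations ran from -0.59 (Fcgr2b with Fcgrt) to 0.49 (Fcgr2b with Fcgr4), and that of Fcgr2b with Fcgr3 was 0.38.

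Because FICZ acts through Ahr, the 250 bases before each RefSeq start were searched for the core of the Ahr response element, GCGTG, on both strands. All 6 genes had an entry in the RefSeq promoter table (GRCm38.p6), and the bases were placed in GRCm39 by an exact match. The core was found in Fcgr3, Fcer1g and Fcgrt and not in Fcgr1, Fcgr2b or Fcgr4, while 28.2% of 32851 promoters hold it. The bases around it are shown on the gene's strand, with the core in capitals, so that the sites can be compared.
Fcgr3, chr1:170887077-170887105: caagaaggtgctGCGTGtagaagggatat
Fcer1g, chr1:171061919-171061942: gtgtgggcgaagGCGTGgcaggaa
Fcgrt, chr7:44753398-44753426: aagtcacattcaGCGTGcaggcctttcca

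The core lay 121, 12 and 168 bases before the first listed RefSeq start of Fcgr3, Fcer1g and Fcgrt. When FICZ was added with Jag1, Fcgr3 of these 3 genes rose, Fcgrt fell and Fcer1g did not pass, and Fcgr2b, without a match, rose. GENCODE places the start of the canonical transcript 192, 301 and 825 bases upstream of the RefSeq start in these genes, so that the matches lie inside the transcribed region of that annotation. Fcgr1 held an interferon γ-activated site (TTCNNNGAA) that 7.02% of promoters hold, 109 bases before its start. It also held the RBPJ site TGGGAA (21.6% of promoters), which overlaps the interferon γ-activated site, and no other of the 6 genes did. The PU.1 core GAGGAA (23.3% of promoters) was in Fcgr1, Fcgr3 and Fcgr4. A match is a description of the letters in this window and not evidence of binding.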

How the data were processed

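Transcript abundance had been estimated by the authors with salmon (Ensembl GRCm39 transcripts), brought to gene level with tximport and scaled with DESeq2; tool versions are not given in the sources used here. The deposited values are a normalised signal per gene (normalised counts), not whole reads: of values up to 15 reads, 52.5% to 58.0% were whole multiples of the worth of 1 read, within 0.1. That worth, from genes with 1 transcript, gave 20.6 to 24.3 M reads per sample, and the precision of genes with few reads is limited accordingly. The authors' second file held an experiment code and condition as text (no measurement), and its code differed from the sample description in 1 of 11 samples.

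Because the values are not counts, the count test of the study was not used. The limma package (3.58.1, R 4.3.3, trended empirical Bayes) was applied to log2(value + 1), with 1 mean per group over all 11 samples (6 residual degrees of freedom). The added 1 affects changes of low genes, whose fitted fold can lie above or below the ratio of group means. For Fcgr4 it was 2.87 against 1.85 for FICZ with Jag1, and 1.47 against 1.62 for Jag1 with FICZ. The 13095 genes that reached 10 in 2 or more samples were tested. Tests were two-sided and adjusted within each contrast (Benjamini-Hochberg), with calls at 0.05. The fit was tested on simulated data. An arm left with 1 sample was assumed to share the spread of the rest. Floors are 3 reads and cover counting error only.

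In the Jag1 cultures with and without FICZ (TGFβ/IL-34 present), same-numbered replicates share experiment codes, and their deviations correlated at 0.153, 0.122 and 0.166, so the numbers pair these samples. Same-numbered replicates of TGFβ/IL-34/FICZ and TGFβ/IL-34/Jag1/FICZ also share codes, with lower correlations of 0.0591 and 0.0578. By the sample descriptions, comparisons with TGFβ/IL-34 join samples of different codes, and these were not paired by this check. The main fit held no term for pairs, which entered only with the replicate and experiment blocks. The alternatives were other normalisations, pseudocounts of 0.5 and 4, no filter, only the groups compared, each replicate left out, replicate, experiment and flow cell blocks, sample weights and a sum of Fcgr2b and Fcgr3.

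Named were all 6 receptors, up to 3 genes per list and contrast with the largest change among the called genes whose higher group averaged 50 or more, and 3 genes per receptor by correlation among genes with a mean of at least 100. Cell marker lists were given mainly as sums and ranges, and only some of their genes that met this rule are named. The members and lists were chosen with earlier results of these data known. Adgre1, Csf1r with FICZ and Jag1, Lyn, Vav1, Oscar, Syk, B2m and Ms4a2 with Jag1 were named after their values were seen.

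Gene positions and transcript lengths are from GENCODE vM39 (GRCm39), where 21676 of 21860 identifiers matched. Words of 31 bases were compared over all its transcripts. Python 3.11.15, pandas 2.3.3 and matplotlib 3.10.9 were used. Amino acid sequences were not analysed here.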

Additional observations from a re-analysis of the deposited data

Results flagged for a closer look

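The effect of FICZ on Fcgrt differed between cultures with and without Jag1 by a test of the difference itself: the interaction was -1.66 on the log2 scale (SE 0.33, limma adjusted p = 0.0433). FICZ changed Fcgrt by 0.06 without Jag1, where the samples had 2545 and 1873 normalised counts with FICZ and 2371 and 1854 without. With Jag1 it changed by -1.60, from 2363, 2684 and 2916 to 796, 726 and 1142. The call was lost in 14 of 23 alternatives (adjusted p up to 0.301), among them the omission of either TGFβ/IL-34 replicate, of TGFβ/IL-34/FICZ replicate 1 or of any replicate of TGFβ/IL-34/Jag1 or TGFβ/IL-34/Jag1/FICZ. The value without Jag1 rests on 2 samples a group, and groups of 2 or 3 samples were not searched for outlying samples.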

How the results depend on the processing

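Over 23 alternatives, 755 of 828 values of the 6 genes kept their direction and their side of the threshold, 41 lost and 5 gained a call, and 27 changed sign. Most of these values were not called in the main fit and could not lose a call, so this total does not measure how well the calls held. The calls of FICZ with Jag1 (3 of 6) held throughout. The replicate block left the number of called receptors unchanged in each comparison (3 for FICZ with Jag1) and changed no call of the 6 genes. By the sample descriptions, same-numbered replicates of TGFβ/IL-34 and of the groups set against it carry different experiment codes. In those comparisons and the interaction the block did not join matched samples, so unchanged calls there do not speak for the result. It ended the calls of Malt1 for Jag1 without and with FICZ (limma adjusted p = 0.068 and 0.0609), Rab11fip5 for Jag1 without FICZ (0.0587) and the Rac2 interaction (0.0541). The number called in the interaction was 0 with equal totals, no filter, the experiment code of the description, the flow cell or sample weights; for Jag1 with FICZ it was 1 with no filter and 0 with only its groups or with sample weights. Leaving out 1 replicate gave 0 to 3 called genes for Jag1 without FICZ, 0 to 1 for FICZ without Jag1, 0 to 2 for both together, 3 to 3 for FICZ with Jag1, 0 to 4 for Jag1 with FICZ and 0 to 3 for the interaction. The cause of these losses was not tested, though each omission leaves fewer samples.

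No called value changed sign, and the adjusted p of the 27 that did was 0.751 to 0.996. Where both factors were compared with TGFβ/IL-34, Fcgr4 was -0.12 with quantile normalisation and -0.10 with the replicate block, and Fcgr2b was -0.0404 with that block and -0.11 when summed with Fcgr3. With equal totals Fcgr2b was -0.0690 and Fcgrt -0.12 for FICZ without Jag1, Fcgr2b 0.12 for Jag1 with FICZ and the interaction of Fcgr1 0.0327. With the experiment code of the description, FICZ without Jag1 gave 0.00908 for Fcgr1 and 0.41 for Fcgr4; with the code of the authors' file, a choice made after seeing the data, Jag1 without FICZ gave 0.16 for Fcer1g; with the flow cell, FICZ without Jag1 gave -0.0382 for Fcer1g. Leaving out 1 replicate gave, for both together, -0.69 to 1.01 for Fcgr4 and -0.0334 to 0.18 for Fcgr2b; for Jag1 with FICZ, -0.16 to 0.0842 for Fcgr2b; for FICZ without Jag1, -0.37 to 1.14 for Fcer1g, -0.16 to 0.28 for Fcgrt, -0.0124 to 0.23 for Fcgr2b and -1.25 to 0.45 for Fcgr4; for Jag1 without FICZ, -0.14 to 0.0597 for Fcer1g; and for the interaction, -1.48 to 0.0239 for Fcer1g and -0.77 to 0.25 for Fcgr1. With a pseudocount of 4 the difference of Fcgr4 over Fcgr2b was 0.31 for Jag1 without FICZ and -0.27 for FICZ with Jag1. Fcgr1 and Fcgr4 had few reads, which limits their precision.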
